A study of Homo sapiens with 4 samples.

Results

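The HOX genes are the 39 protein-coding genes of the human HOXA, HOXB, HOXC and HOXD clusters, taken from a table of 58233 genes by their symbols, a cluster letter followed by a paralogue number from 1 to 13. The HOXA cluster holds 11 of them, HOXB 10, and HOXC and HOXD 9 each, and within a cluster they are ordered here by start position. Their RNA was measured in MCF10AT, human mammary epithelial cells derived from MCF10A and transformed by HRAS G12V. The comparison has 2 libraries labelled Bromo+/- against 2 libraries labelled Non-target control, all from the same line in the same medium with 5% horse serum, insulin, hydrocortisone, cholera toxin and epidermal growth factor. The labels do not say what Bromo stands for or how the altered cells were made, and they give a protocol for lentiviral shRNA with puromycin selection, while the series' title speaks of EP300 knockdown. No label says that the 2 libraries of a group came from separate cultures or clones, so each group may be 1 clone, and the p-values cover the spread between these libraries alone.

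HOX genes encode homeodomain transcription factors that give cells of the embryo their position along the head-to-tail axis. Genes at one end of a cluster (low numbers) act towards the head and those at the other end (high numbers) towards the tail and in the limbs and genital tract, and genes with the same number in different clusters are paralogues with similar homeodomains. The proteins bind DNA together with TALE homeodomain cofactors of the PBX and MEIS families, and the clusters are silenced by Polycomb complexes, kept active by Trithorax complexes, divided by CTCF and cohesin, and induced by retinoic acid. In the adult breast several HOX genes remain expressed, and in mice the paralogues HOXA9, HOXB9 and HOXD9 together are needed for the mammary gland to grow in pregnancy.

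Summed over all genes, the libraries labelled Bromo+/- had 11975396 and 10953756 counts, against 10835237 and 11884715 in the controls. EP300 itself was counted 1485 and 1426 times in the libraries labelled Bromo+/-, against 1113 and 1281 in the controls (log2 fold change 0.19, SE 0.06, adjusted p = 0.00701, edgeR), a call that ended with the DESeq2 Wald test and without control replicate 1. Counts per gene therefore show no loss of EP300 RNA and cannot show an altered bromodomain, and the direction of each difference rests on the labels. Mitochondrial genes took 5.05% and 5.18% of the counts of the libraries labelled Bromo+/-, against 4.32% and 4.21% in the controls. Markers of cell types were called at an adjusted p of 0.05 (edgeR), at which 26.4% of all genes tested were higher and 27.1% lower. Of 12 markers of mammary epithelial cells 11 were tested and all 11 were lower in the libraries labelled Bromo+/-, with a summed level of 2306 to 2377 CPM there and 12291 to 12714 CPM in the controls, and KRT14 had no count in either library labelled Bromo+/-. Of 12 fibroblast and mesenchymal markers 6 were tested and all 6 were higher (5874 to 6038 against 1809.6 to 1924 CPM), with COL3A1 and LUM at 0 in all 4 libraries. Leukocyte markers were 3 lower of 3 tested (6.47 to 7.66 against 25.4 to 25.5 CPM, CD3E at 0). Endothelial markers were 2 higher and 1 lower of 4 tested (19.3 to 23.6 against 25.3 to 27.7 CPM, VWF at 0). Melanocyte and Schwann cell markers were 1 lower of 1 tested (12.96 to 17.1 against 26.8 to 28.02 CPM, TYR and SOX10 at 0). No adipocyte marker had enough counts to be tested (1.51 to 1.71 against 0.764 to 0.865 CPM, ADIPOQ and LEP at 0). The part of these marker differences in the HOX results was not tested, and in bulk RNA fewer cells of a type and less RNA per cell cannot be told apart.

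HOX genes as a whole made up a small amount of RNA that differed by less than its spread between the groups, but the genes that contributed to it differed. The 39 genes summed to 1280 and 1123 counts in the libraries labelled Bromo+/- and to 1063 and 1191 in the controls, or 102 ± 3.43 and 102 ± 1.03 scaled CPM (counts over the size of the library after TMM scaling, as mean ± SD of 2 libraries). Within that sum the HOXB genes were lower, the middle HOXC genes HOXC6 and HOXC8 were higher, and HOXA11 was counted in the libraries labelled Bromo+/- and not once in the controls. Of the 39 genes, 25 had at least 1 count in some library, 16 of these had enough counts to be tested, and 14 had no count in any library. At an adjusted p of 0.05 (edgeR quasi-likelihood test, adjusted over all 13179 genes tested), 5 of the 16 were higher (HOXA5, HOXA9, HOXA11, HOXC6 and HOXC8), 6 were lower (HOXB2, HOXB3, HOXB9, HOXC11 and HOXC13 among them) and 5 did not pass. Over all genes tested 53.5% passed, 26.4% higher and 27.1% lower (68.8% of the tested HOX genes, 31.3% higher and 37.5% lower). With the DESeq2 Wald test, which called 37.1% of all genes, 3 HOX genes were higher and 4 lower, and with either Bromo+/- replicate 1 or control replicate 1 left out, 3 HOX genes were higher. With scaling by library size alone the table's 3485 higher and 3570 lower genes became 4433 and 2794, and the HOX genes 6 higher and 6 lower. The groups' libraries did not overlap for 14 of the 16 HOX genes, against 75.2% of all genes tested. A change of at least 2-fold past the threshold was found for 6 of the 16, HOXA11, HOXB2, HOXB3, HOXB9, HOXC6 and HOXC11, and for 15.0% of all genes tested. The median log2 fold change of the 16 was 0.10, beside 0.01 over all genes tested, and it is the same with HOXA11 at its bound.

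**Figure D1:**
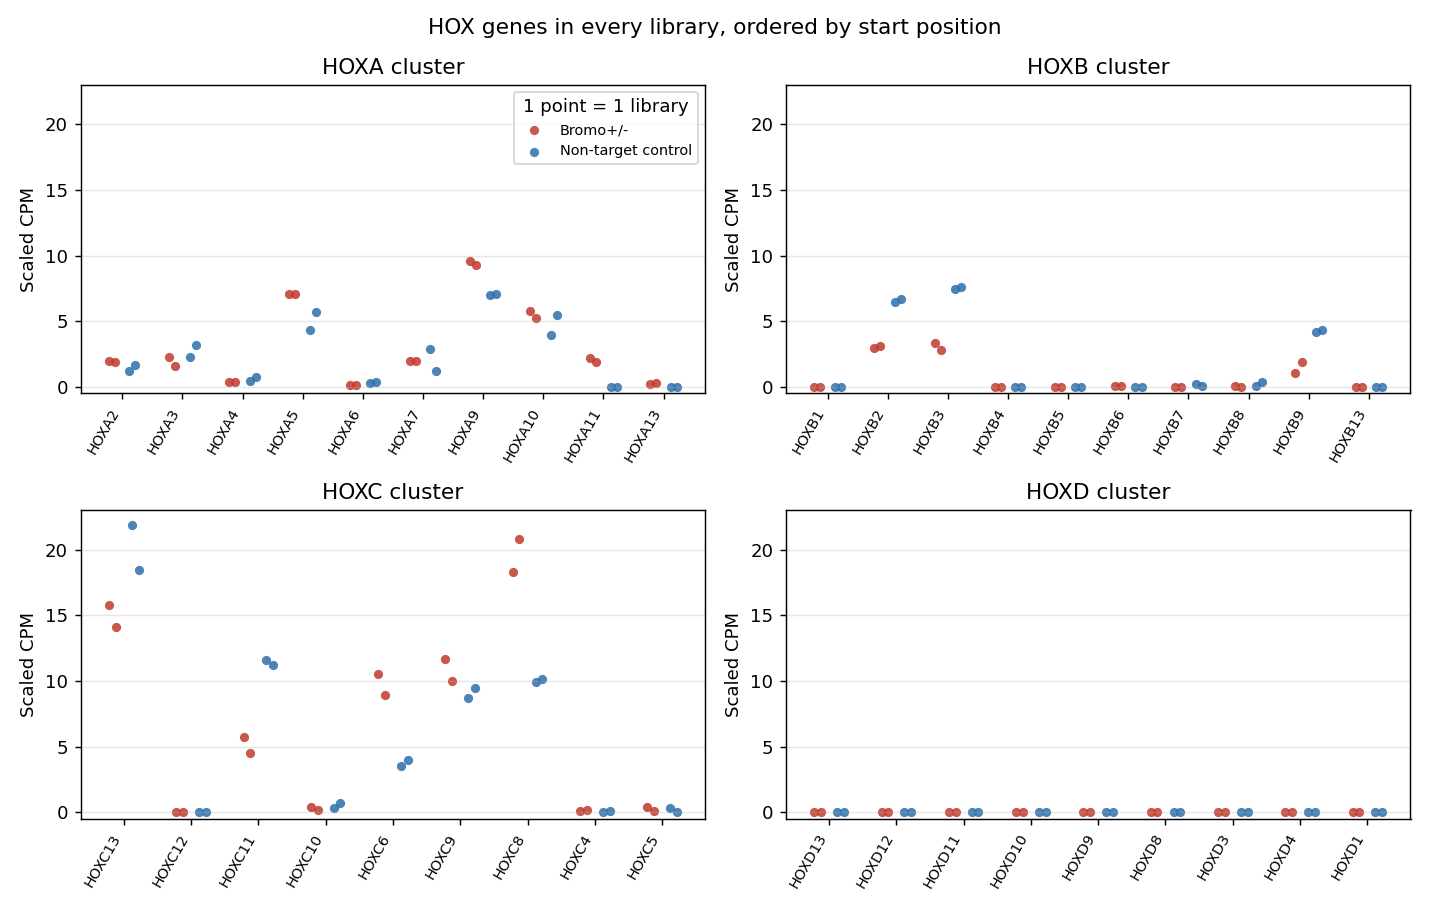
Scaled CPM of HOX genes in every library, 1 panel per cluster with genes ordered by start position. Red points are the 2 libraries labelled Bromo+/- and blue points the 2 Non-target control libraries. HOXB2, HOXB3 and HOXB9 lie lower in red, HOXC6 and HOXC8 lie higher in red, HOXA11 is at 0 in blue, and all 9 HOXD genes are at 0.

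**Figure D2:**
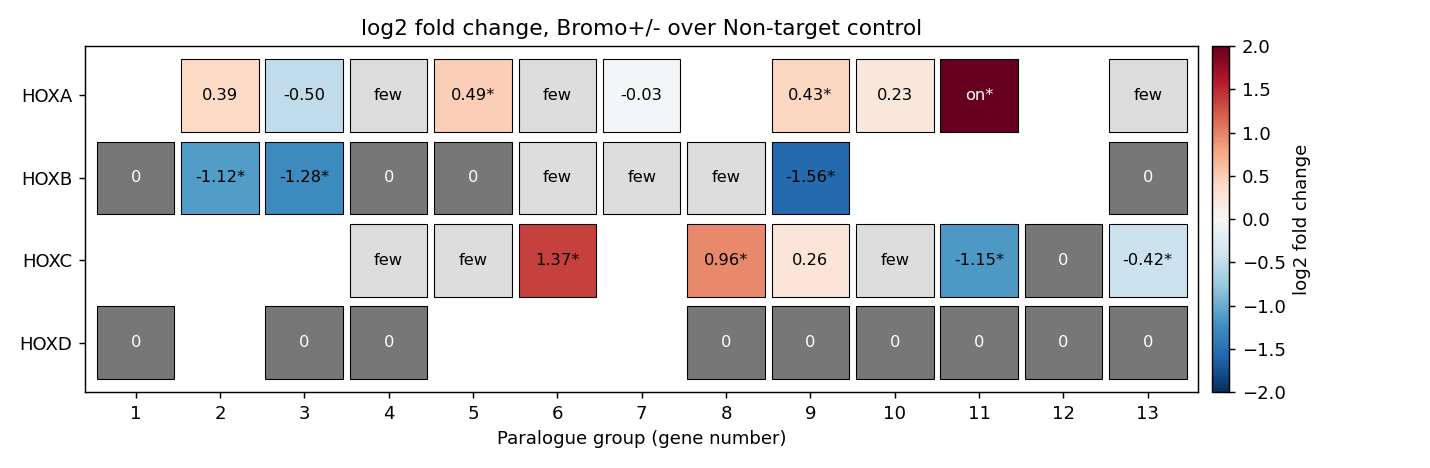
Log2 fold change, Bromo+/- over Non-target control, by cluster (rows) and paralogue group (columns). An asterisk marks an adjusted p of 0.05 or less (edgeR), "few" a gene with too few counts to be tested, 0 a gene with no count, and "on" HOXA11, which had no count in the controls; colours stop at a log2 fold change of 2 in either direction. In groups 2 and 3 HOXB2 and HOXB3 are lower, and the genes of groups 5 to 8 that passed were higher.

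Of the 16 tested HOX genes HOXA11 showed the largest difference. The gene, which shapes the kidney, the forearm and the uterus in mice, lies on the minus strand of chromosome 7 (GRCh38, 27181510 to 27185223), between HOXA10 and HOXA13. It was counted 27 and 21 times in the libraries labelled Bromo+/-, against 0 and 0 in the controls. Set against a floor of 3 counts over the control group, it was at least 15.0-fold higher (adjusted p = 7.92e-13, edgeR), and the adjusted p stayed at or below 6.9e-05 under all alternatives run. HOXA13, the last gene of the cluster and a factor of the hand, foot and genital tract, followed with 3 and 3 counts against 0 and 0, too few to be tested. Set against the same floor HOXA13 was 1.87-fold higher. For both genes the floor takes the counts in the libraries labelled Bromo+/- as exact, so neither fold is a confidence bound. HOXA11-AS, whose RNA is read from the opposite strand across the start of HOXA11, had 2 and 3 counts against 0 and 0. HOXA10, the neighbour on the other side, with roles in the uterus and in blood, was counted 71 and 59 times in the libraries labelled Bromo+/- and 41 and 63 times in the controls, groups that overlap (log2 fold change 0.23, SE 0.20, adjusted p = 0.356, edgeR), and with 1 library left out its log2 fold change lay between 0.0134 and 0.49. The annotated spans of HOXA10 and HOXA11 are 1.25 kb apart. The counts in this table did not use strand, and reads on exon bases shared by 2 genes were left out, so the 30.6% of HOXA11 exon bases that other genes cover gave no counts, and reads from an antisense RNA on the rest cannot be told from its own.

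HOX genes resemble each other most in the homeobox, the sequence that encodes the DNA-binding homeodomain. The homeoboxes of HOXA11 and of its neighbour HOXA10, from another paralogue group, are shown for comparison. Those of the HOXA11 paralogues HOXC11 and HOXD11 were not compared. Each is 180 bases within 1 coding exon on the minus strand of chromosome 7 (GRCh38, GENCODE v29), at chr7:27182838-27183017 for HOXA11 and chr7:27171947-27172126 for HOXA10. Capitals mark bases 142 to 159, which encode part of the recognition helix that lies in the major groove of DNA.
HOXA11: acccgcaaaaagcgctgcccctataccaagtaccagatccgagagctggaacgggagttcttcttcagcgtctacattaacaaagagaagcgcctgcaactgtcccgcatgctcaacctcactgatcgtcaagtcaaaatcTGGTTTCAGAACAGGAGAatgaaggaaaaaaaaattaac
HOXA10: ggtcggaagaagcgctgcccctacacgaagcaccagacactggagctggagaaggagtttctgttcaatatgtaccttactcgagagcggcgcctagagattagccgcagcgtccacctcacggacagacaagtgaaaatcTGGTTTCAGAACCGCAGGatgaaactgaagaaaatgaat
HOXA11 was identical to HOXA10 at 125 of 180 bases (69.4%). The longest run of identical bases between a HOXA11 transcript and a HOX transcript of another cluster was 24 bases, with HOXB9. Longer shared runs were found for several tested genes. The longest were those of HOXB3 (62 bases, with HOXD3) and HOXB9 (40 bases, with HOXD9), and both HOXD genes had no count. Next came HOXA5 (34 bases, with HOXB8), HOXA3 (32, with HOXB3) and HOXA9 (31, with HOXC5), and these 3 partners had counts. Neither read length nor the treatment of reads with several matches is given in the sources used here.

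The 250 bases before the RefSeq start are shown for HOXA11 and for HOXA9. HOXA9 is the nearest HOXA gene counted in both groups whose RefSeq start lies outside its own annotated exons. Windows are from RefSeq (GRCh38.p14), 5′ to 3′ on the minus strand, at chr7:27185233-27185482 for HOXA11 and chr7:27165538-27165787 for HOXA9, and capitals mark TATAAA or CCAAT on either strand.
HOXA11 promoter: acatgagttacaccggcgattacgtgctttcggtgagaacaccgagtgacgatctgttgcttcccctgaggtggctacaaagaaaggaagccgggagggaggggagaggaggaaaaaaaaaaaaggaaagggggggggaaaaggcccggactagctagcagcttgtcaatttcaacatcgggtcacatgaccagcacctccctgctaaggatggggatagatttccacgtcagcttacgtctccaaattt
HOXA9 promoter: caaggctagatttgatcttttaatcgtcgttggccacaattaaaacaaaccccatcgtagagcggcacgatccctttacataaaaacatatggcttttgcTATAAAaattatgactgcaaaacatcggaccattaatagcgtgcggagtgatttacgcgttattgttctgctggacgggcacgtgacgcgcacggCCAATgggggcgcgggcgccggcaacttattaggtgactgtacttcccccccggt
The HOXA9 window held 1 TATAAA and 1 CCAAT, and the HOXA11 window held neither. Of 35116 RefSeq promoters, 10.7% held TATAAA and 32.0% held CCAAT on either strand. The table of promoters held 20 of the 39 HOX genes, in 19 distinct windows since HOXC4 and HOXC5 share one, and CCAAT was in 16 of the 19, TATAAA in 4, TGATNNAT (a site of HOX and PBX pairs) in 3, beside 6.47% of all promoters, CACCTG (an E-box) in 1, beside 17.5%, and AGGTCA (a half-site of nuclear receptors) in 0, beside 12.1%. These matches of letters describe the windows and say nothing of binding. The HOXA11 window held 11 CG pairs, the same as the median of all promoters, and the HOXA9 window 20.

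The rest of the HOXA cluster moved by less. HOXA5, a factor of lung and gut development, was counted 87 and 80 times in the libraries labelled Bromo+/- and 45 and 66 times in the controls (log2 fold change 0.49, SE 0.19, adjusted p = 0.0199, edgeR). HOXA9, known for its part in blood stem cells and leukaemia, was counted 118 and 105 times against 73 and 82 (log2 fold change 0.43, SE 0.16, adjusted p = 0.0199). Both were higher in each library labelled Bromo+/- than in either control, but neither call is firm. The call for HOXA5 ended with the Wald test of DESeq2 (adjusted p = 0.208) and without Bromo+/- replicate 1 (0.0654), Bromo+/- replicate 2 (0.0588) or control replicate 1 (0.287, with a log2 fold change of 0.31). That for HOXA9 ended with the Wald test of DESeq2 (adjusted p = 0.199) and without Bromo+/- replicate 1 (0.0838), control replicate 1 (0.0942) or control replicate 2 (0.0868).

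HOXA2, HOXA3 and HOXA7 did not pass the threshold. HOXA2, a gene of the second pharyngeal arch, had 24 and 21 counts in the libraries labelled Bromo+/-, against 13 and 19 in the controls (log2 fold change 0.39, SE 0.34, adjusted p = 0.334, edgeR), and HOXA3, needed for thymus and parathyroid in mice, had 28 and 18 against 24 and 37 (log2 fold change -0.50, SE 0.29, adjusted p = 0.138). With 1 library left out the value lay between 0.21 and 0.61 for HOXA2 and between -0.79 and -0.24 for HOXA3. HOXA7, a factor of the trunk, had 24 and 22 counts against 30 and 14 (log2 fold change -0.03, SE 0.32), with the controls on both sides of the other libraries. The sign of the HOXA7 value turned with upper quartile scaling, with library size alone and without control replicate 1. HOXA4, a gene of the neck and upper trunk, had 5 and 4 counts in the libraries labelled Bromo+/-, against 5 and 9 in the controls, and HOXA6 had 2 and 2 against 3 and 4. Both had too few counts to be tested, and no difference was detectable at this depth.

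All 3 HOXB genes with enough counts were lower in the libraries labelled Bromo+/-. HOXB2, which acts in the hindbrain and the facial nerve, lies on chromosome 17 (48540894 to 48544989) and was counted 36 and 35 times in the libraries labelled Bromo+/- against 68 and 77 times in the controls (log2 fold change -1.12, SE 0.21, adjusted p = 1.48e-06, edgeR). HOXB3, whose annotated span lies 3.88 kb away and which acts in hindbrain and blood, was counted 41 and 32 times against 78 and 88 (log2 fold change -1.28, SE 0.21, adjusted p = 1.36e-08). HOXB9, a group 9 gene at the far end of the main cluster (48621159 to 48626356), was counted 13 and 21 times against 44 and 50 (log2 fold change -1.56, SE 0.28, adjusted p = 4.17e-07). For each of the 3 both libraries labelled Bromo+/- lay below both controls, and the call held under every alternative run, with a highest adjusted p of 0.00393 for HOXB2, 0.000479 for HOXB3 and 0.00323 for HOXB9. By start position the genes between HOXB3 and HOXB9 had almost no RNA in either group, and of these HOXB4 and HOXB5 lie inside the span of HOXB3. HOXB4 and HOXB5 had no count, HOXB6 had 1 and 1 against 0 and 0, HOXB7 had 0 and 0 against 2 and 1, and HOXB8 had 1 and 0 against 1 and 4. HOXB8, with 1 count in all against 5, had a ratio of 0.187 (95% exact binomial interval 0.00396 to 1.67, counting error only). HOXB1 and HOXB13, the outermost genes on either side, had no count. Summed over the 10 genes, HOXB RNA was 7.499 and 7.88 CPM in the libraries labelled Bromo+/- and 18.4 and 19.0 CPM in the controls, a log2 ratio of mean sums of -1.28.

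The HOXC cluster held more HOX RNA than any other cluster in both groups, and its 5 tested genes split by position. At the end that lies first on chromosome 12, HOXC13, a factor of hair and nails that switches on hair keratins, was counted 194 and 159 times in the libraries labelled Bromo+/- and 229 and 213 times in the controls (log2 fold change -0.42, SE 0.12, adjusted p = 0.00115, edgeR). Its call ended with the Wald test of DESeq2 (adjusted p = 0.0548) and without control replicate 1 (0.0939). HOXC11, the next gene with counts (53973126 to 53977643), was counted 70 and 51 times against 121 and 130 (log2 fold change -1.15, SE 0.17, adjusted p = 4.61e-10). Farther along, the genes of the trunk region were higher or did not pass. HOXC6 (53990624 to 54030823), a gene of the chest region, was counted 129 and 101 times in the libraries labelled Bromo+/- and 37 and 46 times in the controls (log2 fold change 1.37, SE 0.19, adjusted p = 2.91e-11). HOXC8 (54009106 to 54012362), which patterns the ribs and spine in mice, was counted 224 and 235 times against 104 and 117 (log2 fold change 0.96, SE 0.13, adjusted p = 1.50e-11). The calls for HOXC11, HOXC6 and HOXC8 held under every alternative run, the highest adjusted p being 8.7e-05 for HOXC11.

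HOXC9, which starts inside the span of HOXC6 and ends 5.77 kb before HOXC8, sat between 2 higher genes without passing itself. It was counted 143 and 113 times in the libraries labelled Bromo+/- and 91 and 109 times in the controls (log2 fold change 0.26, SE 0.15, adjusted p = 0.138, edgeR), and passed with scaling by library size alone (log2 fold change 0.34, adjusted p = 0.0447). HOXC10, which lies between the lower HOXC11 and the higher HOXC6, had 5 and 2 counts against 3 and 8. HOXC4 had 1 and 2 against 0 and 1, a ratio of 2.81 (95% exact binomial interval 0.225 to 147), and HOXC5 had 5 and 1 against 3 and 0, a ratio of 1.87 (0.400 to 11.6), so for neither could a difference be seen. HOXC12, between HOXC13 and HOXC11, had no count in any library. The span of HOXC6 runs over those of HOXC9 and HOXC8, and the 15.7% of its exon bases that another gene also covers gave no counts.

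None of the 9 HOXD genes, on chromosome 2 between 176092891 and 176190907, had a count in any library. With 5 genes of the other clusters (HOXB1, HOXB4, HOXB5, HOXB13 and HOXC12), 14 HOX genes had no count among totals of 10835237 to 11975396 counts, which allows a mean level of up to 0.131 CPM in the libraries labelled Bromo+/- and 0.132 CPM in the controls (3 counts over the group). Each of the 14 had exon bases that no other gene covers, 286 bases at the fewest, in HOXD4, so a count was possible for all. The bound covers counted reads only. Shared exon bases, whose reads were left out, made up 80.5% in HOXD4, 73.0% in HOXD3 and 57.4% in HOXD1.

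In both paralogue groups with more than 1 called gene the directions differed between clusters. In group 9, HOXA9 was higher, HOXB9 was lower and HOXC9 did not pass. In group 11, HOXA11 was higher and HOXC11 was lower. In groups 2 and 3, HOXB2 and HOXB3 were lower while HOXA2 and HOXA3 did not pass. Grouped by number instead, the called genes of groups 2 and 3 (HOXB2 and HOXB3) were both lower and those of groups 5 to 8 (HOXA5, HOXC6 and HOXC8) all higher, while groups 9 to 13 held HOXA9 and HOXA11 higher and HOXB9, HOXC11 and HOXC13 lower. No difference between paralogues was tested as such, and the numbers of genes are small.

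Levels of different HOX genes were compared as scaled CPM per kilobase of exon. In the libraries labelled Bromo+/- HOXC8 stood first at 10.3 ± 0.958 CPM per kilobase, followed by HOXC9 at 6.45 ± 0.693 and HOXC13 at 6.17 ± 0.504, and the last 2 differed by less than their SD (n = 2 per group). In the controls HOXC13 stood first at 8.31 ± 1.01, followed by HOXC9 at 5.40 ± 0.309 and HOXC8 at 5.31 ± 0.0688, again a pair that differed by less than the larger SD. HOXC13, HOXC9 and HOXC8 were thus the 3 highest HOX genes per length in both groups. HOXC11 stood 7th in the libraries labelled Bromo+/- (1.57 ± 0.257) and 4th in the controls (3.49 ± 0.0684), and HOXC6 stood 6th (2.75 ± 0.313) and 11th (1.06 ± 0.0886). HOXB2 stood 9th (1.29 ± 0.0502) and 6th (2.82 ± 0.0494), and HOXB9 14th (0.566 ± 0.219) and 9th (1.65 ± 0.0331). HOXA5 and HOXA9 led the HOXA genes in both groups, with HOXA5 at 4.15 ± 0.0020 and 2.93 ± 0.584, and HOXA9 at 3.12 ± 0.0740 and 2.32 ± 0.0276. HOXA11 reached 0.880 ± 0.104 in the libraries labelled Bromo+/-. Reads on exon bases shared between genes were not counted, which lowers the level of a gene such as HOXA7, with 62.5% of its exon bases shared. Counted over unshared exon only, HOXA7 had 2.16 CPM per kilobase in Bromo+/- libraries and 2.25 in control libraries. HOXA11 had 1.27 in Bromo+/- libraries, and the 3 first genes kept their places in both groups. Other places moved by that measure. HOXC11 stood 9th in Bromo+/- libraries, and HOXB2 10th there and 7th in the controls. In the controls HOXB9 stood 11th and HOXC6 12th. HOXA9 stood above HOXA5 in both groups, at 4.28 against 4.15 in Bromo+/- libraries and 3.18 against 2.93 in the controls.

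**Figure D3:**
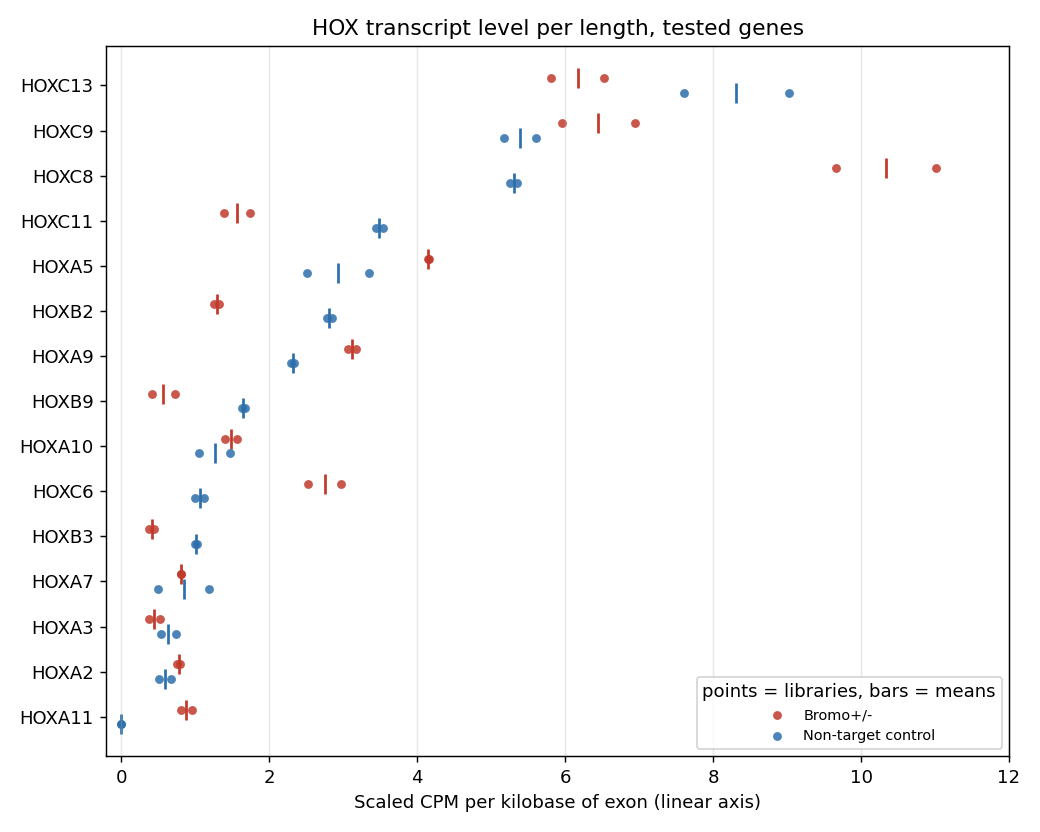
Scaled CPM per kilobase of exon (linear axis) of tested HOX genes, ordered by their mean in the controls. Points are libraries and bars are group means, red for Bromo+/- and blue for Non-target control (n = 2 per group). HOXC8 is highest in red at 10.3 and HOXC13 highest in blue at 8.31, and HOXA11 lies at 0 in blue.

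The balance of HOX RNA between clusters differed for HOXB. HOXB genes gave 7.55% of the summed HOX CPM in the libraries labelled Bromo+/-, against 18.3% in the controls. HOXC genes gave 59.7% and 53.8%, and HOXA genes 32.8% and 27.8%. The HOXC sum was 62.8 and 58.8 CPM in the libraries labelled Bromo+/- and 56.2 and 54.0 CPM in the controls, a log2 ratio of 0.14. The HOXA sum was 34.0 and 32.8 CPM against 26.9 and 30.0 CPM, a log2 ratio of 0.23. The sums are given as descriptions and were not tested.

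The differences were then compared with the genes around each cluster, the 5 nearest tested genes on either side. At HOXB, SNX11, a sorting nexin on one side, had a log2 fold change of -0.12, and CALCOCO2, an autophagy receptor 102 kb from the other side, had -0.04, and neither passed the threshold. Of the 10 genes around HOXB, 1 was lower, CDK5RAP3 (log2 fold change -0.44, SE 0.08, adjusted p = 1.12e-07, edgeR), and 1 was higher, SNF8 (0.27, SE 0.08, adjusted p = 0.00427), both named after their values were seen. The call for SNF8 ended with the DESeq2 Wald test and without control replicate 2. At HOXA, SKAP2, an adaptor protein 97.8 kb away, had a log2 fold change of 0.02 and did not pass, while HIBADH, an enzyme of valine breakdown 325 kb beyond HOXA13, was lower (-0.21, SE 0.08, adjusted p = 0.0194, edgeR), a call that ended with the DESeq2 Wald test, with 2 scalings and without 3 of the 4 libraries (-0.14 without Bromo+/- replicate 1). At HOXC, HOXC13-AS, whose span overlaps that of HOXC13, had a log2 fold change of 0.08. The repair glycosylase SMUG1, on the other side, had -0.24, and neither passed the threshold. CALCOCO1, the next tested gene on the HOXC13 side and 211 kb away, was higher (0.65, SE 0.10, adjusted p = 3.16e-09, edgeR). At HOXD, LNPK, a protein of the endoplasmic reticulum, had -0.01 and ENSG00000218175, a row without a name, had 0.46, neither past it. Of the 10 genes around HOXA 1 was higher and 3 were lower. Around HOXC 4 of 10 were higher and 0 lower, and around HOXD 5 of 10 were higher and 1 lower. Of the 40 flanking genes 11 were higher and 5 lower (27.5% and 12.5%, beside 26.4% and 27.1% of all genes tested), with a median log2 fold change of 0.04, and with the DESeq2 Wald test 7 were higher and 3 lower. A difference of at least 2-fold past the threshold was found for 3 of the 40, beside 15.0% of all genes tested. CREB5, a transcription factor 1099 kb beyond HOXA, was counted 118 and 134 times in the libraries labelled Bromo+/- and 236 and 294 times in the controls (log2 fold change -1.17, SE 0.12). LINC02381, a long non-coding RNA 70.1 kb beyond HOXC, was counted 83 and 61 times against 16 and 18 (log2 fold change 1.98, SE 0.26). WIPF1, an actin regulator 1410.0 kb from HOXD, was counted 236 and 240 times against 64 and 64 (log2 fold change 1.80, SE 0.15).

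**Figure D4:**
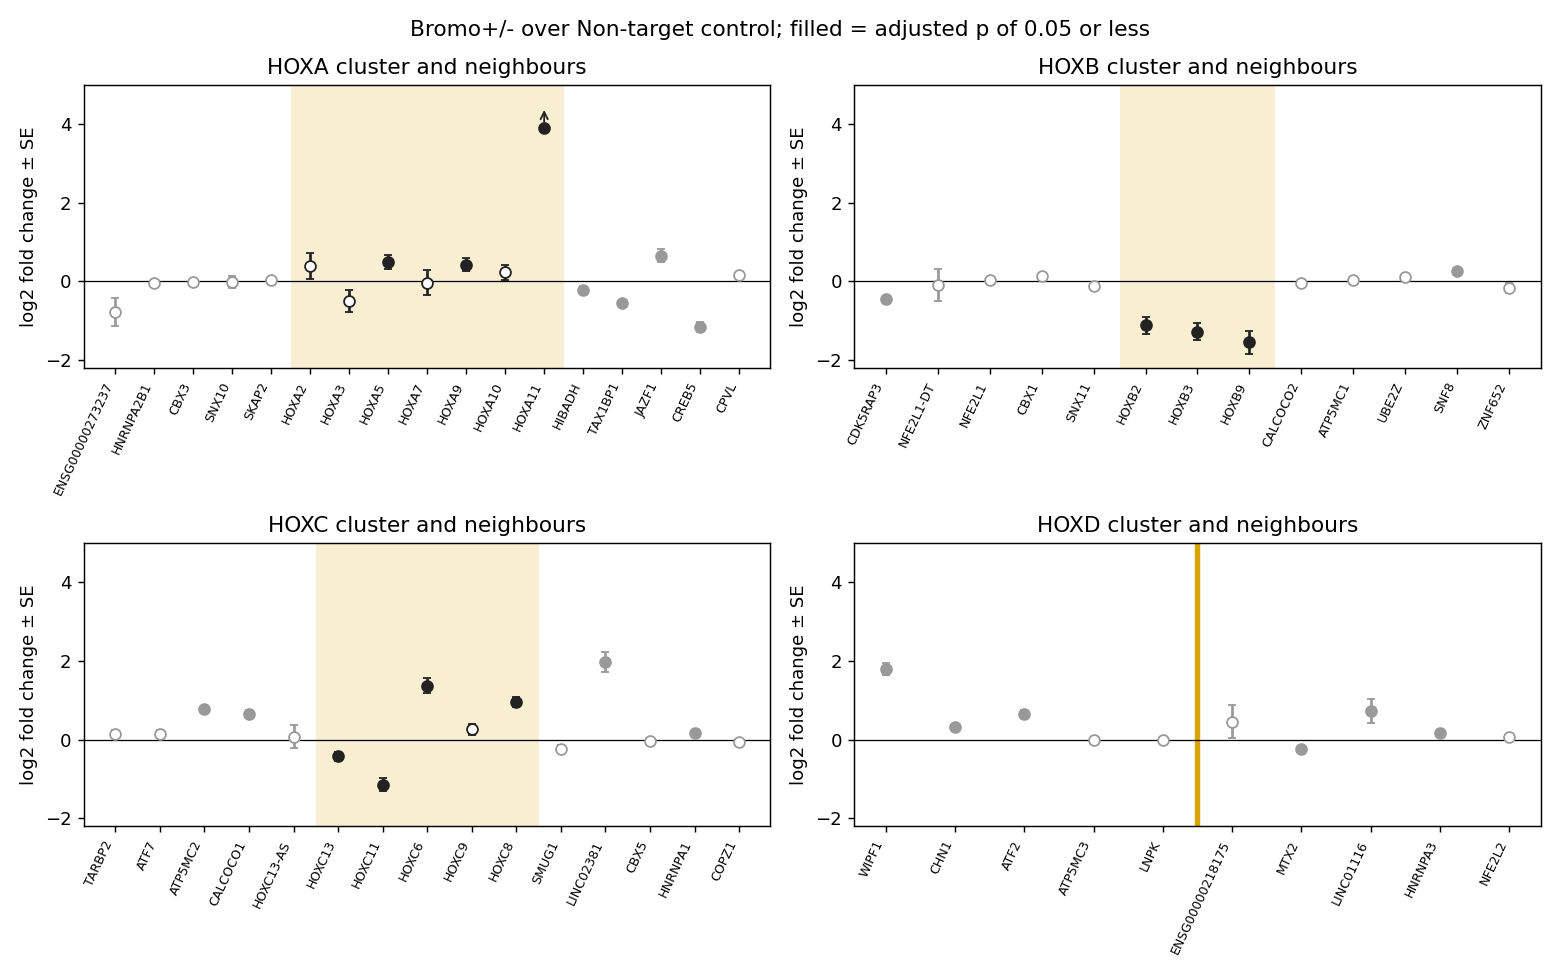
Log2 fold change ± SE, Bromo+/- over Non-target control, of tested HOX genes (black, on a yellow ground) and the 5 nearest tested genes on either side (grey), in order of start position. Filled points have an adjusted p of 0.05 or less (edgeR). The arrow on HOXA11 marks a value set against 3 counts over the controls, which had none. The yellow line stands for the HOXD cluster, which had no tested gene. The 3 HOXB genes are the lowest points of their panel, and HOXC6 and HOXC8 lie above HOXC13 and HOXC11.

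Most other RNAs inside the clusters were too few to be tested. Besides the HOX genes, 61 rows of the table start inside a cluster, 17 of them had a count and 5 were tested. HOTAIR is a long non-coding RNA known as a partner of Polycomb complex 2. It starts inside HOXC11 on the opposite strand and is read away across the start of that gene. HOTAIR was counted 116 and 103 times in the libraries labelled Bromo+/- and 107 and 149 times in the controls (log2 fold change -0.32, SE 0.15, adjusted p = 0.0573, edgeR). Without control replicate 1 its log2 fold change was -0.48. HOTAIRM1, a long non-coding RNA of the HOXA cluster, was counted 20 and 21 times against 23 and 30 (log2 fold change -0.46, adjusted p = 0.199, edgeR). HOXA-AS2 had a log2 fold change of 0.51 and HOXC-AS1 one of 0.42, and neither passed. A long non-coding RNA without a symbol, ENSG00000260597, was the only row of the 5 past the threshold. It lies on the plus strand (chromosome 12, 54019910 to 54022589) inside the spans of HOXC6 and HOXC4, and was counted 37 and 27 times in the libraries labelled Bromo+/- against 4 and 8 times in the controls (log2 fold change 2.30, SE 0.40, adjusted p = 9.23e-08, edgeR). The 8 microRNA rows inside the clusters had no count, in libraries made from poly(A) RNA. HOTTIP, at the HOXA13 end, and HAGLR and HAGLROS, at HOXD, had no count either.

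TALE homeobox genes, listed here together as TALE cofactors, were mostly expressed and differed in both directions. Beside the PBX and MEIS families the list holds PKNOX and TGIF genes. Of 11 genes 10 were tested, 4 were higher and 2 lower (40% and 20%, beside 26.4% and 27.1% of all genes tested), with a median log2 fold change of 0.04, and 1 was lower with the DESeq2 Wald test. MEIS3 was counted 68 and 68 times in the libraries labelled Bromo+/- and 9 and 12 times in the controls (log2 fold change 2.59, SE 0.29, adjusted p = 1.27e-15, edgeR). MEIS2 was counted 215 and 192 times against 99 and 102 (log2 fold change 0.92, SE 0.14). For both of these cofactors the 2 libraries labelled Bromo+/- lay above both controls, while the groups did not overlap for 75.2% of all genes tested. TGIF1, a TALE repressor of TGF-beta and retinoid signals, was lower at 601 and 543 counts against 647 and 675 (log2 fold change -0.31, SE 0.08, adjusted p = 0.000257, edgeR).

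Genes of the complexes that set the state of the HOX clusters differed in both directions, with medians near 0 and beside 26.4% higher and 27.1% lower over all genes tested. In Polycomb complex 2, which places a repressive methyl mark on histone H3, 4 of 12 tested genes were higher and 2 lower, with a median of 0.06. PHF19, which helps to recruit the complex, was higher (3128 and 2670 counts in the libraries labelled Bromo+/- against 1456 and 1617 in the controls, log2 fold change 0.82), as was PHF1 (0.42), while the core subunit EED (-0.42) and LCOR (-0.37) were lower. Of 24 genes of Polycomb complex 1, which reads that mark and compacts chromatin, 8 were higher and 4 lower (median 0.09). The chromodomain reader CBX6 was counted 1452 and 1390 times in the libraries labelled Bromo+/- and 550 and 562 times in the controls (log2 fold change 1.26, SE 0.07), and PCGF2 (0.82), BCORL1 (0.96) and BCOR (0.62) were higher too. Of 24 genes of Trithorax complexes and the histone demethylases that oppose Polycomb 8 were higher and 6 lower (median -0.02). Those with the smallest p were higher, PSIP1 (0.74) and MEN1 (0.51), which tether KMT2 complexes to chromatin, and MLLT3 (1.07) and MLLT1 (0.37), subunits of elongation complexes. Of 14 CTCF and cohesin genes 2 were higher, PDS5B (0.27) and MAU2 (0.23), and 0 lower, with a median of 0.02, and CTCF (0.13) and STAG1 (0.15) did not pass. The calls for MAU2 and PHF1 ended with the DESeq2 Wald test and without Bromo+/- replicate 1, and that for MAU2, at 0.11 without Bromo+/- replicate 1, also without either control. With upper quartile scaling or library size alone 6 CTCF and cohesin genes were higher, CTCF among them. With the DESeq2 Wald test 1 gene of Polycomb complex 2 was higher, 1 of Polycomb complex 1 was lower, 4 Trithorax genes were higher and 2 lower, and 1 cohesin gene was higher.

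The retinoic acid pathway, which induces HOX genes from the low-numbered end, differed in both directions. Of 21 genes 13 were tested, 4 were higher and 6 lower (30.8% and 46.2%, beside 26.4% and 27.1% of all genes tested), with a median log2 fold change of -0.20, and with the DESeq2 Wald test 2 were higher. ALDH1A3, which makes retinoic acid, was counted 473 and 460 times in the libraries labelled Bromo+/- and 2342 and 2757 times in the controls (log2 fold change -2.54, SE 0.07). CRABP2, which carries retinoic acid to the nucleus, was counted 29 and 21 times against 66 and 71 (log2 fold change -1.55, SE 0.24). The receptor gene RARG was lower as well (log2 fold change -0.69), while CYP26B1, which breaks retinoic acid down, was higher (0.76, SE 0.11). These 4 genes were named for the smallest adjusted p, and the groups' libraries did not overlap for any of them. The same held for 75.2% of all genes tested. Of 13 ParaHox, EVX, CDX and related homeobox genes, which lie near or are the closest relatives of the HOX genes, 9 had no count and only MNX1 was tested (log2 fold change -0.04, adjusted p = 0.923, edgeR).

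**Figure D5:**
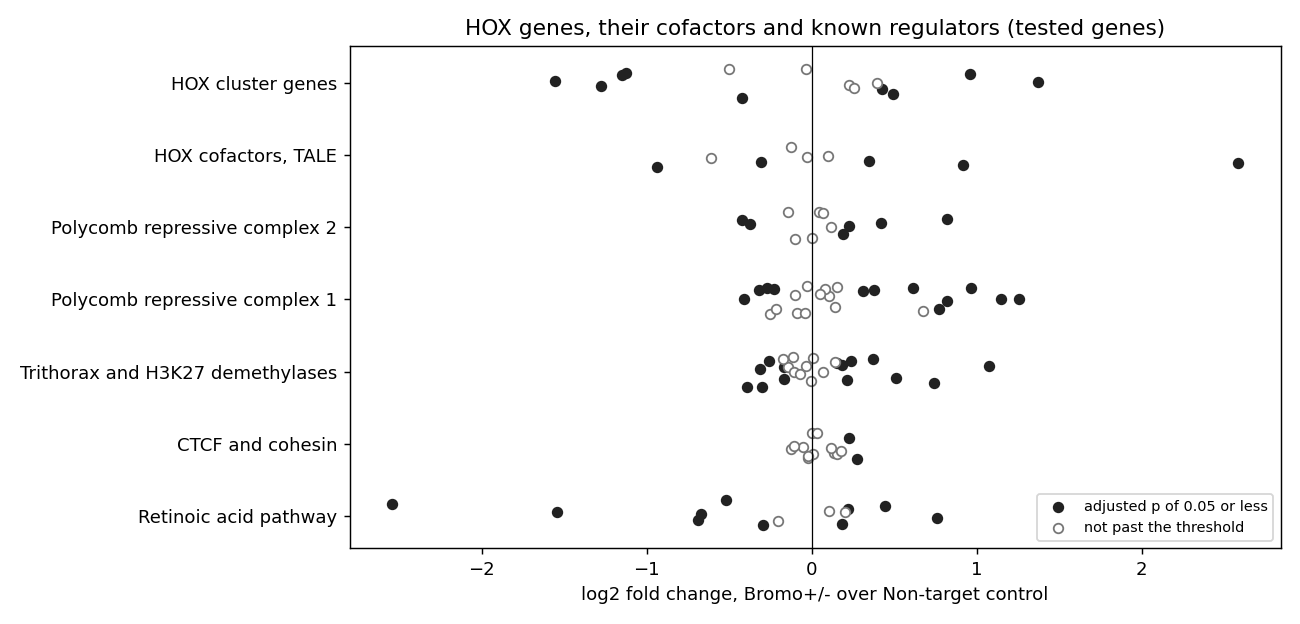
Log2 fold change, Bromo+/- over Non-target control, of tested genes of the HOX clusters, the TALE cofactors and 5 groups of known regulators (rows; height within a row is arbitrary). Black points have an adjusted p of 0.05 or less (edgeR) and open points do not; HOXA11, which had no control count, is not drawn. CTCF and cohesin genes lie within a narrow band near 0, and the HOX genes and TALE cofactors spread to both sides.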

How the data were processed

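RNA of 2 Bromo+/- and 2 Non-target control libraries was analysed from 1 table of counts per Ensembl gene. The authors deposited raw counts, not normalized, made, per the submitters' processing notes, with STAR, GRCh38 and featureCounts 1.5.2. The kit marks strand, but 1029 genes whose exon bases are all shared with a gene on the same strand and 705 whose bases are all shared with a gene on the opposite strand had 0 counts, so reads on shared bases were left out without regard to strand. Columns were matched to samples by name; control columns are named WT. Of 58233 IDs, 57392 were named from current symbols and 503 from GENCODE v29.

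Counts were tested in R 4.3.3 with edgeR 4.0.16 (filterByExpr, 13179 genes; trimmed mean of M values (TMM), factors 1.03, 1.03, 0.968 and 0.975; robust quasi-likelihood test; Benjamini-Hochberg over all genes tested; adjusted p of 0.05 or less). Each SE was worked back from that test, as the absolute log2 fold change over the square root of its F statistic. DESeq2 1.42.0 was an alternative. The common coefficient of variation between replicates was 3.52%. The procedure was tested on simulated data, where it called 62.1% of genes with a log2 change of 0.5. It called 93.9% at a change of 1, 98.5% at 2 and 0.0786% of 12725 unchanged genes. Each step held 66 changed genes, far fewer than passed in the real libraries. Across genes, log2 CPM of replicates correlated with a Pearson's r of 0.996 in both groups (highest r between groups 0.926), and within-group chi-square values of 2.44 and 1.56 per degree of freedom showed no library to be a copy.

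Counts and medians cover all 39 HOX genes, and some genes are not reported here by name. Of the other lists, up to 4 tested members with the smallest adjusted p are named, of neighbours the nearest on each side and those past the threshold by at least 2-fold. The members and lists were chosen with earlier results of these data known. Alternatives were 3 other scalings, no filter, a filter of at least 1 CPM in 2 libraries, DESeq2, no robust estimation, the replicate number as a block, each library left out, and unshared exon length. A gene at 0 in a group is set against 3 counts over that group, with the counts of the other group taken as exact. Intervals cover counting error only, and floors only that of the group at 0.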

Additional observations from a re-analysis of the deposited data

How the results depend on the processing

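Leaving out 1 library leaves a group with 1 sample, which the fits assume to vary like the other group. Over these 4 fits the count of higher HOX genes was 3 to 4, of lower TALE cofactors 1 to 3, of lower Polycomb complex 1 genes 2 to 3, of Trithorax genes 4 to 8 higher and 1 to 6 lower, of CTCF and cohesin genes 1 to 4 higher and 0 to 1 lower, of higher retinoic acid genes 1 to 5, of lower cluster RNAs 0 to 1, of endothelial markers 1 to 2 in each direction, and of flanking genes 7 to 12 higher and 3 to 5 lower. With the DESeq2 Wald test 2292 genes were higher over the whole table (3485 with edgeR), with 3 higher HOX genes, 1 lower TALE cofactor, 1 higher gene of Polycomb complex 2, 1 lower of Polycomb complex 1, 4 higher and 2 lower Trithorax genes, 1 higher cohesin gene, 2 higher retinoic acid genes, 1 higher endothelial marker, and 7 higher and 3 lower flanking genes. With no filter 25 HOX genes were tested and 1 adipocyte marker was higher. With library size alone 3 Trithorax genes were lower, 6 CTCF and cohesin genes were higher (6 also with upper quartile scaling), 18 flanking genes were higher and 3 lower, and the log2 ratios of summed CPM were -1.20 for HOXB and 0.23 for HOXC.

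The values that changed sign belong to genes that did not pass. With upper quartile scaling and with library size alone HOXA7 was 0.0254 and 0.0496, MNX1 0.0192 and 0.0435, CALCOCO2 0.0160 and 0.0403, and LNPK 0.0461 and 0.0704. Over the fits with 1 library left out the log2 fold change was -0.56 to 0.68 for HOXA7, -0.48 to 0.27 for MNX1, -0.0439 to 0.0857 for SKAP2, -0.11 to 0.0116 for CALCOCO2, -0.0677 to 0.19 for HOXC13-AS, -0.0477 to 0.0102 for LNPK and -0.11 to 0.84 for ENSG00000218175. The cause was not tested.

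Replicate numbers did not pair the libraries (correlation of same-numbered deviations 0.0719); with the replicate block 5 HOX genes were higher and 6 lower, as without it, and 3570 and 3701 genes over the table. Depth limits the 9 HOX genes with counts but no test and the 14 with none.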

Other observations

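Homeobox genes outside the HOX clusters differed between the groups in both directions. Of 37 such genes known from epithelium and mesenchyme 24 were tested, 11 were higher and 8 lower in the libraries labelled Bromo+/- (45.8% and 33.3%, beside 26.4% and 27.1% of all genes tested), with a median log2 fold change of 0.22, and the list summed to 481 and 492 CPM there against 549 and 551 CPM in the controls. The 4 with the smallest adjusted p are described. IRX2, an Iroquois gene, was counted 613 and 551 times in the libraries labelled Bromo+/- and 985 and 1108 times in the controls (log2 fold change -0.94, SE 0.07), and IRX5, of the same family, was counted 53 and 39 times against 134 and 131 (log2 fold change -1.62, SE 0.18). Both were lower in each library labelled Bromo+/- than in either control, while the groups did not overlap for 75.2% of all genes tested. PITX1, a factor of the hindlimb, was lower too, at 608 and 499 counts against 800 and 943 (log2 fold change -0.75, SE 0.07). ZHX3, a zinc finger and homeobox repressor, was higher, at 610 and 546 counts against 303 and 330 (log2 fold change 0.77, SE 0.09). IRX2, IRX5 and PITX1 are among 8 lower genes, and 5 of the 37 had no count in any library (DLX5, PRRX1, CUX2, BARX1 and POU3F1).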
